A study of Homo sapiens with 4 samples.

Results

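Promoter-proximal WT p53 peaks were the peaks of Tet-treated WT cells whose summit lay within 1 kb of the start of a protein-coding gene. A start was the 5′ end of the whole gene model in GENCODE release 44, placed on GRCh37. By this rule 164 of the 4326 peaks (3.79%) were promoter-proximal, and the other 4162 peaks of the same list served for comparison. They came from chromatin immunoprecipitation followed by sequencing (ChIP-seq) with an antibody to p53 in H1299, a lung cancer cell line of human origin that has no p53 of its own. The stable lines carried WT p53, or the K120R form in which arginine replaces the lysine, on a lentiviral construct held in check by the tetracycline (Tet) repressor. Each form was measured without treatment and after Tet for 24 h, at a dose of 1 µg/ml in the methods and of 1 µg/µl in the labels. Each of the 4 conditions had 1 library, and WT and K120R cells were separate stable lines, so the line and the p53 form cannot be told apart. With no replicates there is no test between conditions, and the 95% intervals below (exact Clopper-Pearson) cover counting error only.

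p53 binds as a tetramer to a response element (RE) built of decamer repeats, each with a CWWG core (W is A or T) between purines and pyrimidines. Many of its best-known target genes carry such an element close to the start of transcription, and others are reached from introns or distant enhancers. Promoters differ from distant sites in sequence, being rich in G and C and in CpG, and in how open the chromatin already is. Lys120 lies in the DNA-binding domain, where it contacts the DNA and is a target of acetylation.

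The ChIP libraries held between 33059650 and 34857204 tags and their inputs between 32480936 and 41132992. Lists of 488 peaks in untreated WT cells, 12 in untreated K120R cells and 2023 in Tet-treated K120R cells were compared with the WT list. The authors' peak caller used a fragment length of 170 bp for Tet-treated WT cells and of 64 to 68 bp for the other libraries, so values are compared within a list, and lists only by whether a peak was called. Where a peak is missing, the depth of these libraries gave no call. The share of peaks within 1 kb of a gene start was 3.79% (3.24 to 4.40) in Tet-treated WT cells, 5.14% (4.22 to 6.19) in Tet-treated K120R cells and 11.1% (8.42 to 14.2) in untreated WT cells. None of the 12 peaks of untreated K120R cells was so placed, which allows a share of up to 26.5%. For scale, 1.29% of the sequenced bases of GRCh37 lie within 1 kb of such a start.

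The elements that the results turn on are printed in groups, on GRCh37, 5′ to 3′ on the strand given, with the CWWG core positions in capitals. The study's source data list 1356 REs by position and sequence, slightly fewer than the study counts. For 26 of them the sequence differs from GRCh37 at the listed position. Of the 164 promoter-proximal peaks, 67 held a listed element. Shown here are 4 listed elements with a G/C bp at 0 or 1 of the flanking positions, those next to the cores (3, 8, 13 and 18 from the 5′ end), all in peaks that were also called in K120R cells, as were 21 of the 26 promoter-proximal peaks with such an element (80.8%, 60.6 to 93.4).
CDKN1A (chr6:36644226-36644245, plus strand): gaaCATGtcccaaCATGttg
MDM2 (chr12:69202741-69202760, minus strand): agaCAAGtcaggaCTTAact
REV3L (chr6:111805343-111805362, minus strand): tgaCAAGtccttaCATGtac
GDF15 (chr19:18484757-18484776, minus strand): ggaCATGtccgggCAGGtct

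Next are 7 listed elements with 3 flanking G/C bps, shown because the K120R list split them. The BAX and INPP5B peaks had no counterpart in Tet-treated K120R cells, and the other 5 had a K120R peak. Over all listed elements with 3 or 4 flanking G/C bps in promoter-proximal peaks, 8 of 19 (42.1%, 20.3 to 66.5) had a K120R peak, so the printed set holds more with a K120R peak than the whole.
BAX (chr19:49458470-49458489, plus strand): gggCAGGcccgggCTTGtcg
INPP5B (chr1:38412766-38412785, minus strand): gggCATGctgggaCTTGcag
BBC3 (chr19:47735825-47735844, plus strand): ggaCATGcctgggCAGAccc
AEN (chr15:89164537-89164556, plus strand): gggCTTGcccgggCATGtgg
DCP1B (chr12:2113816-2113835, plus strand): cgaCAAGcccaggCCTGccc
PTCHD4 (chr6:48078934-48078953, minus strand): aggCTTGcccagaCTTGccc
RPS19 (chr19:42364495-42364514, minus strand): gggCATGtccgggCCTGccg

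The last 3 were found here in the reference, under summits with no listed element or with a better match beside it. They are the 20-bp windows closest to the p53 consensus (purines, the CWWG core and pyrimidines, repeated without a spacer) within 75 bp of the summit. The CCNG1 window has 1 mismatch, against 5 in the element listed in the same peak.
CDKN1A, downstream peak (chr6:36645108-36645127, plus strand): gaaGAAGactgggCATGtct
DEAF1 (chr11:707015-707034, plus strand): aggCAGGgccgggCATGccc
CCNG1 (chr5:162864932-162864951, plus strand): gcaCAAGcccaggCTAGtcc

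The summits lay on both sides of the gene start, at a median distance of 376 bp. Upstream summits numbered 67 (40.9%), and 97 lay at or after the start. By the annotation of any protein-coding gene, 12 summits fell in coding sequence, 44 in untranslated regions, 11 in other exons and 46 in introns. The other 51 lay outside protein-coding genes, and non-coding genes were not considered. The peaks were within 1 kb of the starts of 185 genes on 22 chromosomes, and 21 peaks were within 1 kb of 2 or more starts. CDKN1A was the only gene with 2 such peaks. The strongest peaks within 1 kb of 2 or more starts were those of TRIAP1 and GATC, of FAS and ACTA2, and of F8A3 and H2AB3. F8A3 and H2AB3 belong to families with near-identical copies. Peaks at the copies F8A2 and H2AB2 (fold enrichment 10.3) and F8A1 and H2AB1 (4.78) were also among the 164. The place of these peaks is uncertain, and they may not be separate sites. The rule used the outermost annotated start, which for some genes is not the main promoter: 140 of the 164 peaks were also within 1 kb of the start of a canonical transcript, whereas the stronger CDKN1A peak was 2272 bp from it and the GDF15 peak 12180 bp. At the limit itself, the peak of ACADL, an enzyme gene of fatty acid oxidation, lay 992 bp away with a fold enrichment of 7.96 and the CROT peak 967 bp away with 13.6. Just outside were the peaks of DNAJB5 at 1009 bp (4.53) and KLRK1 at 1010 bp (7.25).

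**Figure D1:**
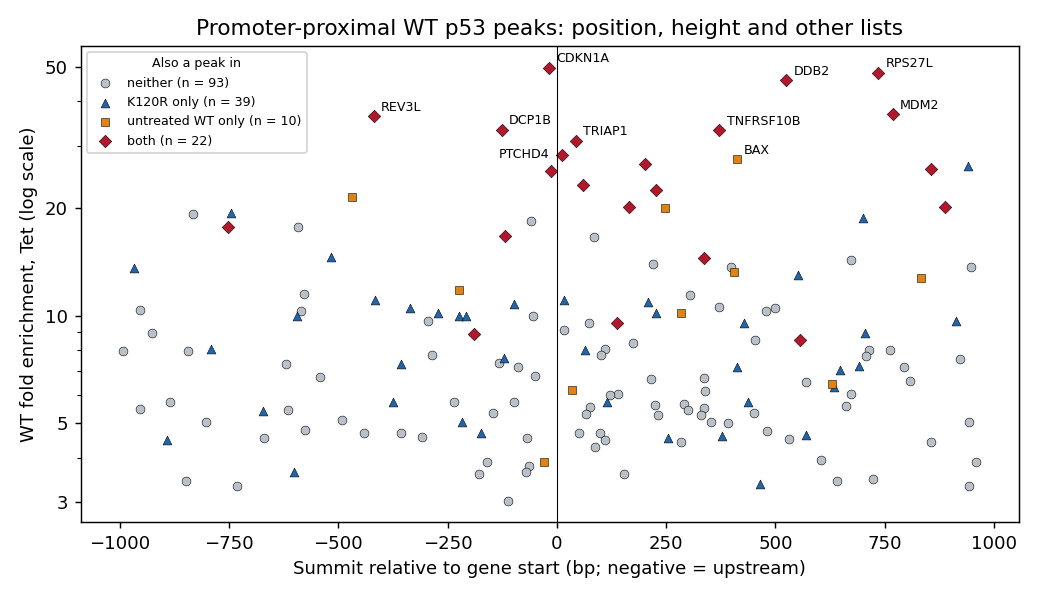
Each point is a promoter-proximal WT peak, placed by the distance of its summit from the gene start (bp, upstream negative) and by its fold enrichment in Tet-treated WT cells (log scale), with symbols for the other lists in which a peak was called. The 22 peaks also found in both untreated WT and Tet-treated K120R cells lie on either side of the start and include the 9 highest peaks, whereas 93 peaks were found in neither.

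Promoter-proximal peaks had a median fold enrichment near that of other WT peaks, on a higher local background. The fold enrichment (pileup of fragments over the local background, each raised by 1) had a median of 7.45 (quartiles 5.22 and 11.2, range 3.03 to 49.7), against 7.64 (5.42 and 12.4, up to 90.7) in other peaks. The pileup at the summit had a median of 42.1 fragments, against 32.0. The local background implied by these values was 4.42 fragments, against 3.00 in other peaks. It lay at the genome-wide level in 11 promoter-proximal peaks (6.71%) and in 1237 other peaks (29.7%). Their median length was 332 bp against 303 bp. Pileup therefore placed promoter-proximal peaks higher than other peaks, and fold enrichment did not.

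Of the 10 highest peaks, 9 lay at genes of a census of p53 targets in the study's source data, PTCHD4 being the exception. The CDKN1A peak, 18 bp upstream of the outermost start of the gene for the cell cycle inhibitor p21, had a fold enrichment of 49.7 in Tet-treated WT cells, 40.2 in untreated WT cells and 34.4 in Tet-treated K120R cells, each on its own list. It was the highest of the 164 peaks in all 3 lists. RPS27L, a ribosomal protein paralog, had a peak 736 bp after its start with values of 48.1, 38.0 and 25.9 in the same order. DCP1B, a cofactor of mRNA decapping, had 33.3, 30.7 and 8.42. PTCHD4, which encodes a patched-domain membrane protein, had 28.3, 7.29 and 8.25 over an element without a mismatch. All 4 were thus called in these 3 lists. No promoter-proximal peak was called in untreated K120R cells, where only 6 of the 4162 other peaks (0.144%) were.

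Of 64 genes in 6 lists of known p53 targets, sorted by role, 28 (43.8%) had a promoter-proximal WT peak. The background was 185 of 20136 protein-coding genes (0.919%). These lists hold genes picked for being p53 targets, so their share is a description of known targets. A K120R peak was called at 69 of the 185 genes with a promoter-proximal peak, which is the background for the K120R counts of each list. Of the 342 symbols in the census, 338 were annotated, and 75 of these (22.2%) had such a peak. The 74 peaks at census genes had a median fold enrichment of 10.1, and the 90 peaks at other genes 5.73. A K120R peak was called at 34 of the 74 (45.9%, 34.3 to 57.9) and at 27 of the 90 (20.8 to 40.6%), and these intervals overlap.

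Among 10 genes of cell cycle arrest, 4 had a promoter-proximal peak, and 3 of these also had a K120R peak. Besides the peak described above, CDKN1A had a peak 888 bp after the outermost start, with fold enrichments of 20.2 in Tet-treated WT cells, 6.70 in untreated WT cells and 7.02 in K120R cells and no listed element. CCNG1, which encodes cyclin G1, had 14.5, 10.2 and 8.09. E2F7, a transcriptional repressor of the cell cycle, had 14.6 in Tet-treated WT cells and 11.2 in K120R cells, with no peak in untreated WT cells. PLK3, a stress-responsive kinase, had 21.5 and 11.1 in the WT lists and no K120R peak. PLK3 was thus the arrest gene whose promoter peak was not called with K120R p53.

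All 3 feedback genes with a promoter-proximal peak, of 8 listed, had a K120R peak. MDM2, the ubiquitin ligase that degrades p53, had fold enrichments of 36.8 in Tet-treated WT cells, 13.9 in untreated WT cells and 27.4 in K120R cells, at a summit in its intron 769 bp after the start. The TRIAP1 peak, at the gene for an inhibitor of apoptosis, had 31.0, 8.75 and 14.1. PPM1D, a phosphatase that turns off p53 signalling, had 8.03 in Tet-treated WT cells and 9.05 in K120R cells and no untreated peak. The PPM1D peak stood near the median of promoter-proximal peaks, and the MDM2 and TRIAP1 peaks were among the 10 highest.

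Of the 6 lists, apoptosis had the largest share of genes with a promoter-proximal peak, 11 of 19, and 5 of these had a K120R peak. BAX, which permeabilizes the outer mitochondrial membrane, had 27.5 in Tet-treated WT cells and 9.20 in untreated WT cells, and no peak in K120R cells. BBC3, the gene of the BH3-only protein PUMA, had 26.6, 9.98 and 8.43 in Tet-treated WT, untreated WT and K120R cells. The summit near the starts of FAS, a death receptor, and of ACTA2 had 23.3, 6.14 and 8.34. BAX was the highest of all promoter-proximal peaks without a K120R peak. The TRAIL receptor gene TNFRSF10B had 33.1, 6.45 and 11.1. The apoptotic exonuclease gene AEN had 25.4, 27.2 and 5.42, and PMAIP1, the gene of NOXA, had 9.97 and 4.95 with no untreated peak. The K120R peaks at AEN and PMAIP1 were weak, with −log10 q of 4.23 and 2.67. Of the rest, TP53INP1, the gene of a stress-induced nuclear protein, had 11.8 in Tet-treated and 5.66 in untreated WT cells. The decoy receptor gene TNFRSF10D (10.6), the TRAIL receptor gene TNFRSF10A (8.53) and PHLDA3 (4.69), whose product restrains AKT, had a peak in Tet-treated WT cells only. The same held for the summit near the starts of APAF1, the gene of the apoptosome scaffold, and of IKBIP (10.5). Among these apoptosis genes K120R peaks were thus called at some of the highest WT peaks and not at others.

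DNA repair genes had 4 promoter-proximal peaks among 8 genes, 2 of them with a K120R peak. DDB2, which recognizes ultraviolet damage, had 45.8 in Tet-treated WT cells, 18.3 in untreated WT cells and 5.43 in K120R cells. REV3L, the catalytic subunit of a translesion polymerase, had 36.3, 18.7 and 11.2. The translesion polymerase gene POLH (9.53) and the damage sensor gene XPC (8.05) had a peak in Tet-treated WT cells only. On the WT list the DDB2 peak was among the 10 highest promoter-proximal peaks, and on the K120R list its −log10 q was 8.94.

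None of the 4 genes of metabolism, redox and autophagy with a promoter-proximal peak, among 13 listed, had a K120R or untreated peak, and 93 of all 164 promoter-proximal peaks (56.7%) had neither. SESN2 (7.17), a stress-induced regulator of growth signalling, PRKAB1 (8.40), a subunit of the AMP-activated kinase, DRAM1 (5.72), a lysosomal regulator of autophagy, and FDXR (5.56), a mitochondrial reductase, had these fold enrichments in Tet-treated WT cells. Of 6 genes of secreted and matrix proteins, GDF15, a stress cytokine, had 17.7, 14.6 and 13.1 in Tet-treated WT, untreated WT and K120R cells. The 4 peaks of metabolism, redox and autophagy genes, found in Tet-treated WT cells only, thus had fold enrichments of at most 8.40.

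**Figure D2:**
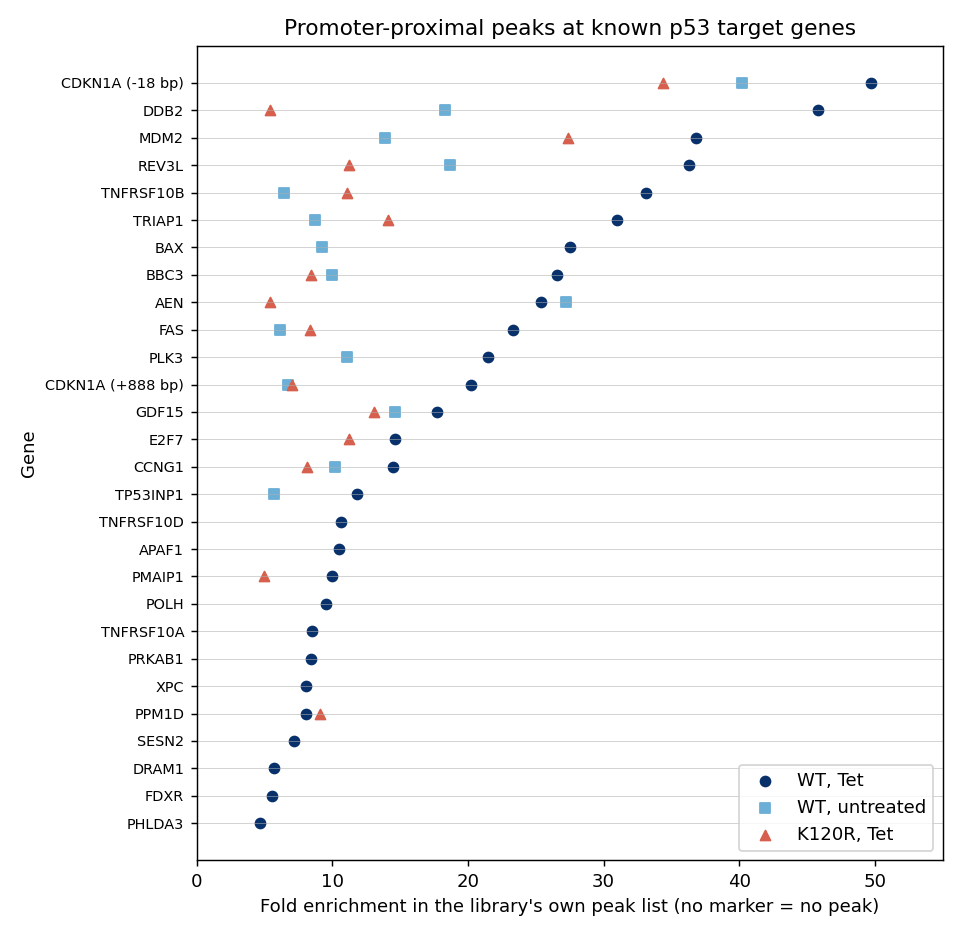
Fold enrichment (linear scale, each library on its own list) is plotted for promoter-proximal peaks at genes of the role lists, in Tet-treated WT, untreated WT and Tet-treated K120R cells, with no marker where no peak was called. From TNFRSF10D (10.6) down, every peak shown but those of PMAIP1 and PPM1D was found in Tet-treated WT cells only.

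Outside the role lists, RPS27L (above), LIF and RPS19 were among the 5 highest promoter-proximal peaks on the K120R list. RPS19, the gene of a protein of the small ribosomal subunit, had fold enrichments of 20.2 in Tet-treated WT cells, 21.0 in untreated WT cells and 20.6 in K120R cells, and its implied background of 15 fragments was the highest of the 164 peaks. LIF, a cytokine gene, had 25.8, 12.3 and 21.4. Other high peaks had no K120R peak, namely those of CHD9NB (20.1, with 4.22 in untreated WT cells), the zinc finger gene ZNF561 (19.3) and INPP5B (18.5), the gene of an inositol phosphatase. Among peaks with no listed element, KMT2A, the gene of a histone methyltransferase, had 16.7, 6.14 and 5.01 although the best window under its summit had 7 mismatches. The transcription factor gene DEAF1 (16.6) and EI24 (14.0), the gene of a membrane protein of the endoplasmic reticulum, had a peak in Tet-treated WT cells only.

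A K120R peak was called at 61 of the 164 promoter-proximal peaks (37.2%, 29.8 to 45.1) and at 1031 of the 4162 other peaks (24.8%, 23.5 to 26.1), with 25.2% over the whole list. These intervals do not overlap, whereas without the peaks seen in untreated WT cells they do (29.5%, 21.9 to 38.1, against 21.1%, 19.8 to 22.4). Within quartiles of the fold enrichment of the whole WT list, the shares from the lowest to the highest quartile were 19.1, 24.3, 42.9 and 65.8% of promoter-proximal peaks, against 10.5, 14.2, 23.7 and 50.2% of other peaks. The share was higher at promoter-proximal peaks in every quartile, and the intervals did not overlap in the third (27.7 to 59.0 against 21.2 to 26.4) alone. Within quartiles of the pileup the shares were 12.5, 15.8, 25 and 66.1%, against 10.5, 14.1, 24.8 and 49.8%. The difference by pileup was thus in the highest quartile, where 62 of the promoter-proximal peaks fell. There the intervals (53 to 77.7 against 46.7 to 52.9) met at their ends. That quartile runs from 53.3 to 322 fragments, so pileup was not held alike within it. With a consensus element, the median pileup there was 88.2 at promoter-proximal and 82.3 at other peaks. By peak length the shares were 12.5, 13.8, 36.2 and 72.9%, against 9.61, 15.5, 21.9 and 52.2%. In the highest quartile of length the intervals (58.2 to 84.7 against 49.1 to 55.3) did not overlap. Promoter-proximal peaks had higher pileup and greater length than other peaks, and in the highest quartile of each their K120R share was above that of other peaks.

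**Figure D3:**
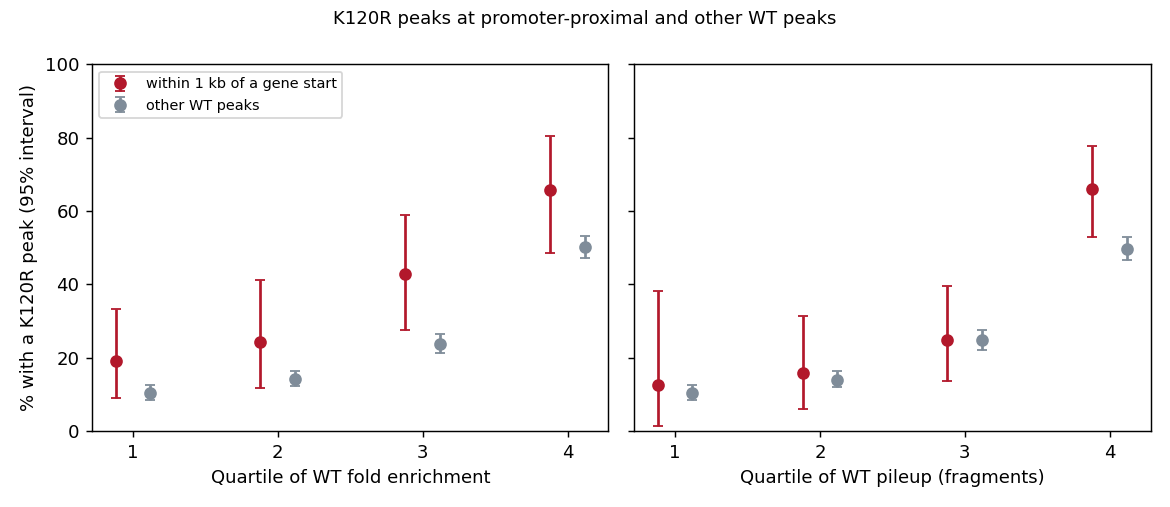
The share of WT peaks with a K120R peak (points, with 95% intervals) is plotted for promoter-proximal and other peaks, by quartile of the fold enrichment (left) and of the pileup in fragments (right) over the whole WT list. By fold enrichment the promoter-proximal points lie above the others in all 4 quartiles, and by pileup the clear gap is in the highest quartile (66.1 against 49.8%).

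A peak in untreated WT cells was called at 32 promoter-proximal peaks (19.5%, 13.7 to 26.4) and at 369 other peaks (8.87%, 8.02 to 9.77), with 9.27% over the whole list. In the quartiles of fold enrichment the shares were 2.13, 5.41, 11.9 and 63.2%, against 0.493, 0.382, 2.56 and 31.8%. The intervals did not overlap in the third quartile of fold enrichment (3.98 to 25.6 against 1.69 to 3.70) or in the highest (46.0 to 78.2 against 29.0 to 34.7). By pileup the shares were 0, 5.26, 2.08 and 46.8%, against 0, 0.0903, 1.03 and 34.9%. Intervals by pileup overlapped in the highest quartile (34.0 to 59.9 against 31.9 to 37.9) and not in the second, which held 2 such promoter-proximal peaks and 1 other. By length the shares were 10.6% (3.55 to 23.1) and 2.00% (1.24 to 3.05) in the third quartile. In the highest quartile of length they were 54.2% (39.2 to 68.6) and 33.3% (30.4 to 36.2). Of the 32, 22 were also called in K120R cells (68.8%) and 10 were not, near the 231 of 369 (62.6%, 57.4 to 67.6) among other peaks. All in all 39 promoter-proximal peaks had a K120R peak only, 10 an untreated peak only and 93 (56.7%) neither, against 71.9% with neither among other peaks. Conversely, of the 54 peaks of untreated WT cells within 1 kb of a gene start, 33 (61.1%, 46.9 to 74.1) overlapped a WT peak of Tet-treated cells, against 381 of the 434 peaks farther away (87.8%, 84.3 to 90.7). Of the 104 such peaks of Tet-treated K120R cells, 64 (61.5%, 51.5 to 70.9) overlapped one, against 1086 of 1919 (56.6%, 54.3 to 58.8). The untreated WT peaks at gene starts were thus found again after Tet less often than those elsewhere, and for the K120R peaks the intervals overlap.

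Distance from the start graded these shares only in part. Untreated WT peaks were found at 25.9% of peaks with a summit within 100 bp of the start, at 27.3% from 100 to 250 bp, at 17.1% from 250 to 500 bp and at 14.3% from 500 bp to 1 kb. Beyond that the share was 14.4% between 1000 and 2000 bp and between 8.0 and 9.49% in the farther bins. K120R peaks ranged from 29.6 to 45.5% in the bins inside 1 kb and were at 30.9% between 1000 and 2000 bp, against 21.2 to 26.1% farther away. The intervals inside 1 kb overlap each other, so no order among these bins can be read.

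**Figure D4:**
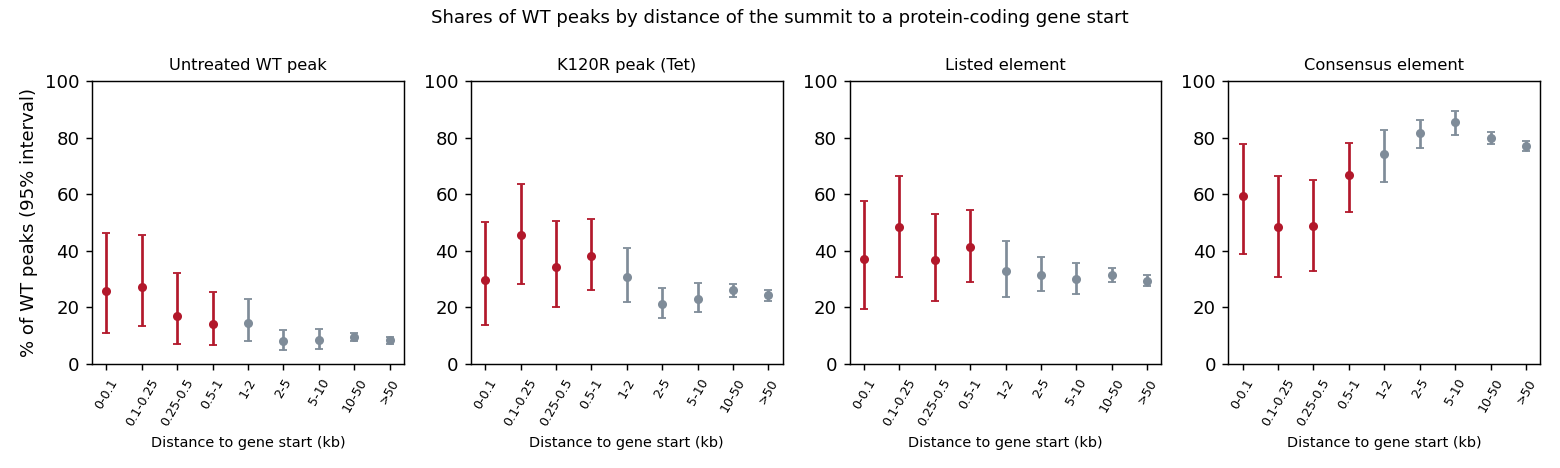
Shares of WT peaks (points, with 95% intervals) with an untreated WT peak, a K120R peak, a listed element and a consensus element are plotted by the distance of the summit from the nearest protein-coding gene start (kb), with bins inside 1 kb in red. Untreated peaks fall from 25.9% nearest the start to 8.37% beyond 50 kb, and consensus elements are less frequent inside 1 kb (48.5 to 66.7%) than beyond 2 kb (77.0 to 85.6%).

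Listed elements were more frequent at gene starts and consensus elements less so. A listed RE lay in 67 promoter-proximal peaks (40.9%, 33.3 to 48.8) and in 1263 other peaks (30.3%, 29.0 to 31.8), with 30.7% over the whole list. The study took its listed REs from WT peaks of this experiment, above a read cutoff and at sites known earlier. Listing therefore went with peak height. In quartiles of fold enrichment the listed shares were 8.51, 27.0, 54.8 and 78.9%, against 5.92, 12.2, 33.6 and 68.9%. The intervals overlapped in every quartile but the third (38.7 to 70.2 against 30.7 to 36.5). A window with at most 3 mismatches to the consensus lay within 75 bp of the summit in 94 promoter-proximal peaks (57.3%, 49.4 to 65.0) and in 3277 other peaks (78.7%, 77.5 to 80.0), with 77.9% over the whole list. Windows of the same length on all 20142 gene starts held one in 2.03%, and windows 1 kb to either side of the promoter-proximal peaks in 2.74%. Close matches differed more: 4.27% of promoter-proximal peaks had a window with 0 or 1 mismatch, against 20.3% of other peaks. The listed elements themselves had a mean of 2.84 mismatches (SD 1.19, n = 67) at gene starts and of 2.08 (SD 1.48, n = 1263) elsewhere. Elements under promoter-proximal summits were thus farther from the consensus, in both sets. The gap in consensus elements was seen in each quartile of fold enrichment, from 40.4 against 60.7% in the lowest to 76.3 against 91.7% in the highest.

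The match to the consensus went with peak height at gene starts too. Median fold enrichment was 14.5 with 0 or 1 mismatch (7 peaks), 11.1 with 2, 8.47 with 3, 7.33 with 4 and 5.16 with 5 or more (28 peaks). K120R peaks were called at 6 of the 7 best-matched peaks (85.7%, 42.1 to 99.6), at 41.5% with 2 mismatches, at 45.7% with 3, at 31.0% with 4 and at 14.3% with 5 or more. Among other peaks the same shares were 34.4, 24.5, 21.3, 22.6 and 17.7%. The share at promoter-proximal peaks was above that at other peaks in each class down to 4 mismatches. The intervals overlapped with 2 mismatches (26.3 to 57.9 against 22.2 to 26.9) and with 4 (17.6 to 47.1 against 18.8 to 26.7). They did not overlap with 0 or 1 (42.1 to 99.6 against 31.2 to 37.7) or with 3 (30.9 to 61.0 against 18.9 to 23.9). In the class with 5 or more the share was 14.3% (4.03 to 32.7) against 17.7% (14.2 to 21.7). Pileup was not held alike in these classes.

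Neither a listed nor a consensus element was found in 50 promoter-proximal peaks. Their median fold enrichment was 5.27, against 5.40 in the 767 other peaks of this kind. A K120R peak was called at 7 of the 50 (14%) and an untreated WT peak at 4 (8.0%), against 17.5% and 0.652% of the 767. These peaks were low and G/C-rich, with a median of 68.9% G and C in the window under the summit. With a consensus element, a K120R peak was called at 44 of 94 promoter-proximal peaks (46.8%, 36.4 to 57.4) and at 26.0% (24.5 to 27.5) of other peaks. Without one the shares were 24.3% (17 of 70) and 20.2%. With a listed element they were 62.7% (42 of 67) and 41.4%. The K120R share at gene starts was thus above that elsewhere at peaks with an element of either kind. With a consensus element, the gap lay in the highest quartile of pileup (75.6%, 60.5 to 87.1, against 49.8%, 46.5 to 53.1). In the lower 3 quartiles the intervals overlapped (20.4%, 10.2 to 34.3, against 16.6%, 15.1 to 18.2).

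G/C bps beside the core sorted the K120R calls at gene starts as they did elsewhere, from a higher level. The study picked these positions because they differed between REs that kept and that lost K120R binding in these same libraries. A fall with G/C bps is thus not an independent result here. Under promoter-proximal summits with a consensus element, a K120R peak was called at 10 of 12 with no flanking G/C bp, at 10 of 16 with 1, at 15 of 29 with 2, at 9 of 33 with 3 and at 0 of 4 with 4. As shares these were 83.3, 62.5, 51.7, 27.3 and 0% (which allows up to 60.2%), against 59.8, 39.0, 19, 7.05 and 5.44% at other peaks. With 0 or 1 G/C bp the share was 71.4% (51.3 to 86.8) against 46.9% (44.1 to 49.8), and with 3 or 4 it was 24.3% (11.8 to 41.2) against 6.78% (5.21 to 8.64). The shares therefore fell with G/C bps in both sets, and at each end the intervals of the 2 sets did not overlap. Elements under promoter-proximal summits held a mean of 2.01 G/C bps (SD 1.10, n = 94) and others 1.80 (SD 1.08, n = 3277), with 3 or 4 in 39.4 and 27.0% of elements. Among listed elements the means were 1.81 (SD 1.13) and 1.82 (SD 1.05), so the greater G/C content at gene starts was not seen there.

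**Figure D5:**
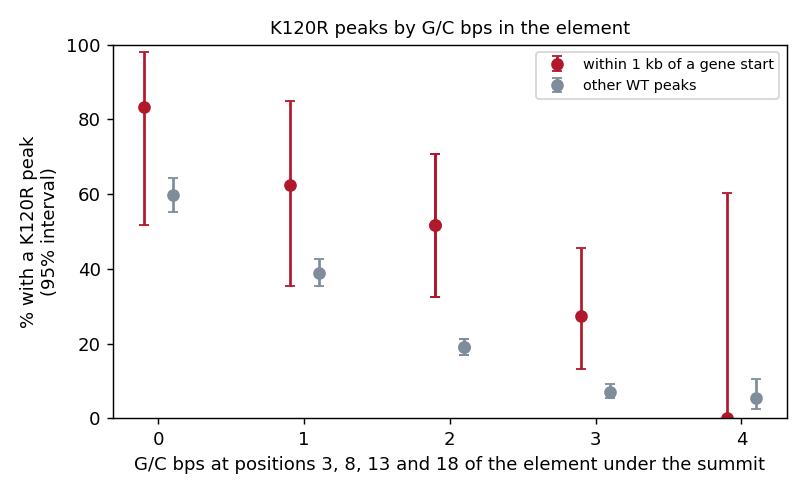
The share of WT peaks with a K120R peak (points, with 95% intervals) is plotted against how many of the flanking positions (3, 8, 13 and 18) hold a G/C bp in the consensus element under the summit, for promoter-proximal and other peaks. Both sets fall, from 83.3 and 59.8% with no G/C bp to 27.3 and 7.05% with 3, and only 4 promoter-proximal elements have 4.

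Pileup again moved with these shares. In the highest quartile of pileup, promoter-proximal peaks with 3 or 4 G/C bps had a K120R peak in 9 of 14 cases (64.3%, 35.1 to 87.2), against 44 of 229 other peaks (19.2%, 14.3 to 24.9). The 9 are the peaks of DCP1B, PTCHD4, BBC3, AEN, RPS19, E2F7, PANK1, TRIM32 and FAM98C, and the 5 without a K120R peak those of BAX, CHD9NB, INPP5B, DEAF1 and IKBIP (these were named after their values were seen). The K120R calls at AEN and FAM98C were weak, with −log10 q of 4.23 and 4.75, and the listed element of the E2F7 peak, which differs from the window counted here, has 1 flanking G/C bp. In the lower 3 quartiles none of 23 such promoter-proximal peaks had one, which allows up to 14.8%, against 2.44% of other peaks. With 0 or 1 G/C bp the shares in the highest quartile were 92.3 and 84.5%, and with 2 they were 72.2% (46.5 to 90.3) and 40.2% (35.3 to 45.3). At high pileup, elements with 2 or more G/C bps were thus the ones at which promoter-proximal and other peaks differed. Where no consensus element was found, the shares in the highest quartile were 41.2% (7 of 17) and 50% (49 of 98).

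The windows under promoter-proximal summits were close to gene starts in base composition. Their median G and C content was 64.6%, against 47.0% under other peaks and 63.6% on all protein-coding gene starts, and their ratio of observed to expected CpG was 0.695, against 0.181 and 0.749. Short promoter words were counted on either strand of the same windows. GGGCGG, the core of the Sp1 GC box, was in 34.1% (26.9 to 41.9) of promoter-proximal windows, in 2.67% of other windows and in 41.2% of all gene starts. CCGGAA, the core of ETS sites, was in 7.32% (3.84 to 12.4), 1.11% (0.810 to 1.47) and 13.6% (13.1 to 14.1), above other windows and below all gene starts. GGGCGG was in 35.1% (25.5 to 45.6) of promoter-proximal windows with a consensus element and in 32.9% (22.1 to 45.1) of those without.

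Other words of the core promoter were also less frequent under promoter-proximal summits than on gene starts as a whole. As most of these summits lay more than 100 bp from the start, the shares do not describe the core promoters of the bound genes. The CCAAT box was in 7.93% (4.29 to 13.2) of promoter-proximal windows, in 14.3% (13.2 to 15.4) of other windows and in 20.4% (19.8 to 20.9) of gene starts. The TATAAA box was in 1.83% (0.379 to 5.25), 9.75% (8.87 to 10.7) and 6.02% (5.69 to 6.35) of these windows in turn, so promoter-proximal windows were below both other sets. The site of AP-1, a factor often found at distant enhancers, was searched as TGANTCA and was in 2.44, 5.38 and 3.00%. No word is contained in another, and a match describes only the letters in the window.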

How the data were processed

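p53 ChIP-seq peaks were analysed in Tet-inducible H1299 cells, grouped by the sample labels, with 1 library per condition. The authors aligned uniquely mapping 75-bp reads to GRCh37 with BWA and used MACS 2.1.1.20160309 to call peaks over the matched input of every library, keeping 1 tag per position at a q-value cutoff of 0.05. The deposited pileup is a signal in fragments over the summit. Fold enrichment, as deposited, is a ratio of pileup to local background, and the authors' p-values and q-values are on the −log10 scale. The score of the narrow-peak format, derived by the authors' software, was deposited and not used.

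Starts came from GENCODE release 44. Lists were compared by overlap of at least 1 bp. Elements were sought on both strands within 75 bp of the summit, without a spacer. The implied background was computed from pileup and fold enrichment. Listed REs and the census came from the study's source data, by position, sequence and name only. Gene synonyms were matched with a RefSeq table. Named peaks are the 10 highest, the 5 highest without a listed element, without a K120R peak and on the K120R list, those of the role lists, and those at the limit. Some of these are not reported here. Members and lists were chosen with earlier results of these data known. The search was tested on simulated data. Software was pysam 0.24.0, pandas 2.3.3, numpy 2.4.6, matplotlib 3.10.9 and scipy 1.17.1 under Python 3.11.15.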

Additional observations from a re-analysis of the deposited data

How the results depend on the processing

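With 1 library per condition, differences between libraries cannot be separated from differences between experiments, and the lists hold only regions above a threshold. No paired analysis was possible because each condition had 1 library and no result came from a test. The count of promoter-proximal peaks (164) was 60 with a limit of 250 bp, 261 with 2 kb and 256 with any transcript start. At 250 bp, the share with an untreated WT peak was 26.7% and the mean G/C count of listed elements 2.08. With any transcript start, 32.4% of summits were upstream and 26.2% of windows held GGGCGG, and 24.1% held it at 2 kb. With a −log10 q of at least 10 in all lists, 26.7% of promoter-proximal and 14.5% of other peaks had a K120R peak, 55.2 and 42.9% a listed element, and 56.9% lay at census genes. Without peaks of untreated WT cells, the shares with a K120R peak were 29.5 and 21.1%, and with a listed element 31.1 and 24.9%, with intervals that overlap (21.9 to 38.1 against 19.8 to 22.4, and 23.3 to 39.7 against 23.6 to 26.3). Consensus elements were in 29.3 and 52.8% at 2 mismatches, and in 82.9 and 89.7% at 4. The ratio of medians to other peaks was 0.975 for fold enrichment and 1.32 for pileup. The direction against other peaks held in all 8 alternatives for untreated peaks (13.8 to 26.7%), all 9 for K120R peaks (26.7 to 38.4%), all 8 for listed elements and all 9 for consensus elements, while the ratio of fold enrichment was above 1 in 1 of 7 (0.910 to 1.01). The alternative of canonical transcript starts was chosen after seeing the data. Of 23 named peaks with a K120R peak, 19 kept it at a −log10 q of at least 5 (lost at KMT2A, AEN, PMAIP1 and CROT) and 16 at 10 (lost also at DDB2, CCNG1 and PTCHD4). Of 22 with an untreated WT peak, 20 kept it at 5 (lost at CHD9NB and TP53INP1), 15 at 10 and 21 with summits within 200 bp (lost at the downstream CDKN1A peak). The cause was not tested.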
